A study of Mus musculus with 4 samples.

Results

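The late granule and S100 genes of neutrophils examined here were S100a8, S100a9, Ltf, Camp, Ngp, Lcn2, Hp, Chil3, Wfdc21 and Mmp9. Every probe set annotated to exactly 1 of these symbols was taken, which gave 11 probe sets for 10 genes, out of 22626 probe sets and 12393 genes. Mmp9 had 2 probe sets and each other gene had 1, and a further probe set shared by Chil3 and Chil4 was not counted. The 10 genes were chosen by name, but selected on earlier log2 values of these 4 arrays, the difference between groups and the gap between replicates, so both are described here without a test. Affymetrix mouse arrays were hybridised with RNA of marrow cells from Mll-AF4stop knock-in mice, whose Mll-AF4 fusion construct is meant to become active once the recombinase Cre has acted. All cells came from mice given 5-fluorouracil (5-FU), a drug that kills dividing blood cells, and were infected with a retrovirus outside the animal 5 days later. Cells with GFP were sorted 2 days later and kept for 14 days with cytokines that support lymphoid progenitors. The Cre-GFP group received a virus carrying Cre and GFP and the control group a GFP virus named MIG, with 2 arrays in each. The name MIG-Cre, which the design text has for the control virus, goes against the sample labels, and the labels were followed. If the control virus carried Cre too, the groups would not differ in activation of the fusion. Both groups carry the knock-in allele, ages are not given in the labels, and Cre itself cannot be told apart from the fusion it activates. Whether the 2 arrays of a group stand for separate mice or cultures is not in the labels, so the spread between them may be technical.

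Neutrophils fill their granules in steps. Myeloperoxidase and the serine proteases of primary granules are made by promyelocytes, and lactoferrin, cathelicidin and lipocalin-2 of the secondary granules by later myelocytes, under the transcription factor C/EBP-epsilon. Gelatinase follows later still, and S100A8 and S100A9 pair into calprotectin, the calcium-, zinc- and manganese-binding protein that fills the cytosol of mature neutrophils and is also made by monocytes. In marrow these transcripts are known from myeloid cells and not from the B lineage.

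The late neutrophil genes were spread by array more than by group. Control 1 had the lowest value of the 4 arrays for 9 of the 10 genes, a place it held for 21.8% of all genes. Control 1 lay under control 2 by more than 1 on the log2 scale for 6 of the 10 genes (0.952% of all genes) and by more than 0.5 for 9 (5.5% of all genes). The median gap between the control arrays, replicate 1 minus replicate 2, was −1.69 over the 10 genes and 0.02 over all genes. Between the Cre-GFP arrays the median gap was −0.03 over the 10 genes and 0.05 over all genes, and it stayed within 0.5 in either direction for 7 of the 10. The group difference, Cre-GFP minus control, had a median of 0.33, with 6 genes higher and 4 lower in Cre-GFP, while its median over all genes was 0.00. For 8 of the 10 genes the mean gap between replicates was larger in size than the difference between groups, as it was for 57.6% of all genes. This mean keeps the sign of each gap and so pairs arrays by number, which the labels do not say they do. S100a9 counted only narrowly, with a mean gap of −0.719 against a group difference of 0.717. These counts restate the contrasts that chose the genes. In bulk cultures, fewer neutrophils and less RNA per neutrophil cannot be told apart.

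**Figure D1:**
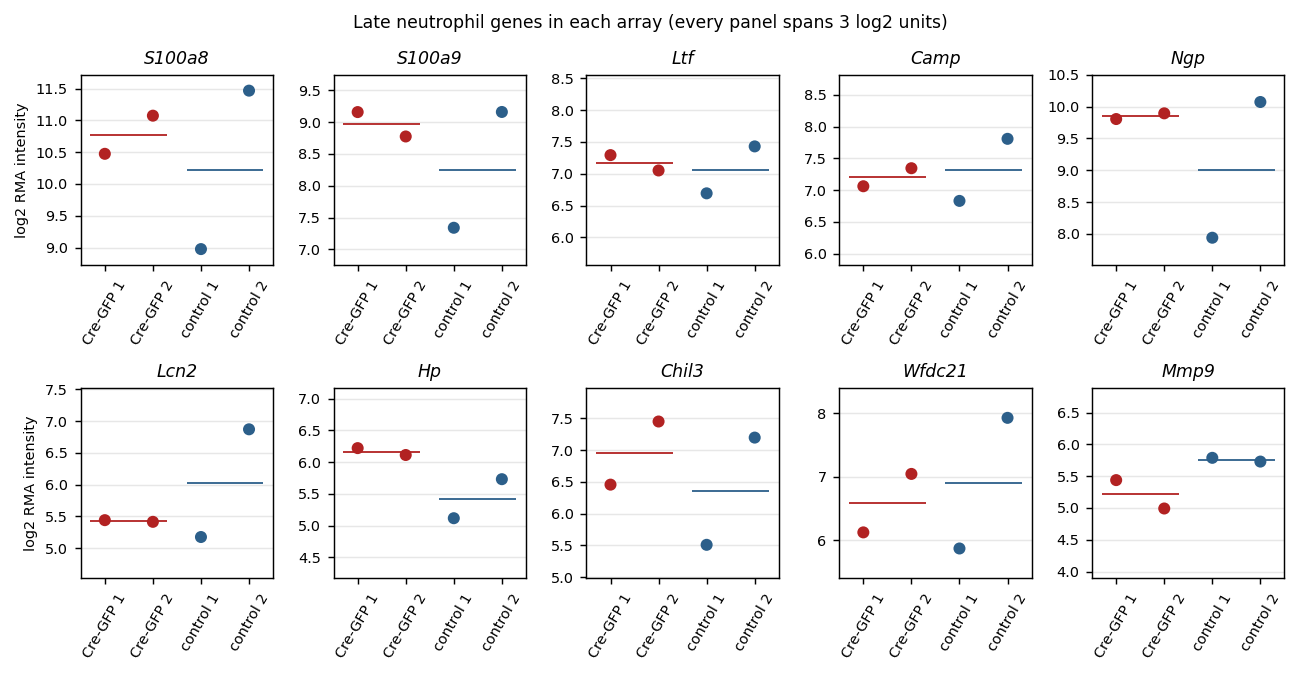
Each panel shows 1 gene by its brightest probe set, with the log2 RMA intensity on the vertical axis and the 4 arrays along the horizontal axis (red for Cre-GFP, blue for control, lines for group means). Control 1 is the lowest point in 9 panels, and in the Mmp9 panel both control arrays lie above both Cre-GFP arrays.

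The limma fit over all 22626 probe sets, with Benjamini-Hochberg adjustment at 0.05, called 0 in either direction (0.0%). At an unadjusted p under 0.05 it counted 1088 probe sets (4.81%), and the ordinary two-sample test called 1 higher in Cre-GFP. No late neutrophil gene was therefore called. With 2 arrays against 2, a two-sided exact permutation test could give no p under 0.333 for any gene, and none was run. Median intensities of the arrays were 87.7 and 85.1 in Cre-GFP, against 85.9 and 86.2 in control. Since RMA equalizes arrays, these medians do not show whether control 1 was dimmer before that step.

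S100a8 and S100a9, the subunits of calprotectin, are neighbours on chromosome 3 with 0 protein-coding genes between them in RefSeq's GRCm38.p6 order. Their promoters are shown because both genes were low in control 1. Sequences are RefSeq promoter windows of GRCm38.p6, 5′ to 3′ along the gene's strand, from 250 bases before the annotated start to 30 after it. Capitals mark letters that match TTGCNNAA, a pattern of C/EBP factors, on either strand. They also mark GAGGAA, a pattern of PU.1 and other Ets factors, whose matches on the opposite strand read as its reverse complement. The TATA box, TATAAA, is in capitals as well.
S100a8, chr3:90668821-90669100, plus strand: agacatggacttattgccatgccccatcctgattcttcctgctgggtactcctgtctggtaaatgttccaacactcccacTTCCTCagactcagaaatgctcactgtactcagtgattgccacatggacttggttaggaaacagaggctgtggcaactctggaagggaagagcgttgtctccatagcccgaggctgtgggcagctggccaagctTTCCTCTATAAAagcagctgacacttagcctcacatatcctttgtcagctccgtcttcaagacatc
S100a9, chr3:90695692-90695971, minus strand: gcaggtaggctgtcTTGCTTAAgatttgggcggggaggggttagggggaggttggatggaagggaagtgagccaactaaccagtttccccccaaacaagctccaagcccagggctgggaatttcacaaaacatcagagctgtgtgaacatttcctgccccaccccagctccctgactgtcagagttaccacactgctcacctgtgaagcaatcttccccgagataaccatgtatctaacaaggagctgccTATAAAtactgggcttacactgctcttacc

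In the S100a8 window TATAAA began at position −30 from the annotated start, directly after an Ets-type match that began at −36, and the motifs did not overlap. In the S100a9 window TATAAA began at the annotated start itself, and the C/EBP-type match at position −236.

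S100a8 read 10.47 and 11.07 in Cre-GFP 1 and 2, against 8.98 and 11.47 in control 1 and 2, all on the log2 scale. Both Cre-GFP values lay between the control values, and control 2 was 5.63-fold above control 1. The mean was 10.77 ± 0.42 in Cre-GFP and 10.22 ± 1.76 in control (SD, n = 2 each), a group difference of 0.55 ± 0.76 (limma's standard error, SE). Without control 1 that difference was −0.69 and without control 2 it was 1.80. Its probe set has the _s_at ending, which Affymetrix gives to sets that can match more than 1 transcript.

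S100a9 read 9.16 and 8.78 in Cre-GFP, against 7.34 and 9.16 in control. Control 1 stood apart from the other 3 arrays, and control 2 was level with Cre-GFP 1. The replicate gap was 0.38 in Cre-GFP and −1.82 in control, so the calprotectin genes moved the same way between the control arrays and opposite ways between the Cre-GFP arrays (S100a8 −0.60). The group difference of S100a9 was 0.72 ± 0.56 (SE), or −0.19 without control 1.

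Camp and Ngp belong to the cathelicidin-like granule proteins. Camp encodes the precursor of the antimicrobial peptide CRAMP, and Ngp a neutrophil granule protein related to its cathelin domain. Both lie on chromosome 9 with 8 protein-coding genes between them, and Ltf lies on the same chromosome, 20 protein-coding genes from Ngp. Ngp and Ltf, with Lcn2 of chromosome 2, are shown for their C/EBP-type matches, in the same format as the calprotectin promoters.
Ngp, chr9:110419558-110419837, plus strand: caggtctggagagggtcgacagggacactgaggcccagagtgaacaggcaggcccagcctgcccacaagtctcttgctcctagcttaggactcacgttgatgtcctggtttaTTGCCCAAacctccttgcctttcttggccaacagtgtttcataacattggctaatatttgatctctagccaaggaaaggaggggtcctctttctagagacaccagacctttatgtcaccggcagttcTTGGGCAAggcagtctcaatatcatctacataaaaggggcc
Ltf, chr9:111019042-111019321, plus strand: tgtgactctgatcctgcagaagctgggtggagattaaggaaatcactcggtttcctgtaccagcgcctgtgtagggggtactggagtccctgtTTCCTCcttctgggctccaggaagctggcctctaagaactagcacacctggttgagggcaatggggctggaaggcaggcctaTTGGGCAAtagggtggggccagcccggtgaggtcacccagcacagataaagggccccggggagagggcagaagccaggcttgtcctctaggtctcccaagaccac
Lcn2, chr2:32387710-32387989, minus strand: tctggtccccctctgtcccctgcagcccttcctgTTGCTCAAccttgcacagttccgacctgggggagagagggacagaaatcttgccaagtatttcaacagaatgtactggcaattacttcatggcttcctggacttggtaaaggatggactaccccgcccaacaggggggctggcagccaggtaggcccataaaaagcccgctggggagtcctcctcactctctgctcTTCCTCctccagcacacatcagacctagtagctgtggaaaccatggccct

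Promoter windows were found for 7 of the 10 genes, named above or Camp and Chil3. Over the whole 300-base windows, TTGCNNAA occurred in 4 of the 7 (S100a9, Ltf, Ngp and Lcn2) and in 10.8% of all 32851 RefSeq windows. GAGGAA occurred in 3 (S100a8, Ltf and Lcn2) and in 28.3% of all windows, and TATAAA in 3 (S100a8, S100a9 and Chil3) and in 13.6% of all. Ngp had 2 C/EBP-type matches, at positions −138 and −11. Camp had no match to any of the motifs in its window. A match is a string of letters and does not show binding.

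Ngp read 9.81 and 9.90 in Cre-GFP, against 7.94 and 10.07 in control. The Cre-GFP arrays and control 2 lay close together and control 1 was 4.39-fold under control 2. Its group difference, 0.84 ± 0.64 (SE), was the highest of the 10 genes with all 4 arrays, and it was −0.22 without control 1 and 1.91 without control 2. Camp read 7.06 and 7.34 in Cre-GFP, against 6.83 and 7.81 in control, with both Cre-GFP values between the control values. The group difference of Camp was −0.12 ± 0.33 (SE), or −0.60 without control 1 and 0.37 without control 2.

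Ltf, Lcn2 and Hp encode proteins that withhold iron or haem. Ltf, lactoferrin of the secondary granules, read 7.29 and 7.05 in Cre-GFP, against 6.69 and 7.43 in control. Its arrays spanned less than those of S100a8 or Ngp, with a control gap of −0.74, and its group difference was 0.11 ± 0.26 (SE), or −0.26 without control 1. Lcn2, lipocalin-2, which binds bacterial siderophores, read 5.44 and 5.42 in Cre-GFP, against 5.18 and 6.87 in control. Here control 2 stood apart above the other 3 arrays. The group difference of Lcn2 was −0.60 ± 0.50 (SE), −1.44 without control 1 and 0.25 without control 2.

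Hp, haptoglobin, a haemoglobin-binding protein made by liver and by developing granulocytes, read 6.22 and 6.11 in Cre-GFP, against 5.12 and 5.73 in control. It was the 1 gene of the 10 with both Cre-GFP arrays above both control arrays, an arrangement found for 15.2% of all genes. Hp averaged 6.17 ± 0.08 in Cre-GFP and 5.42 ± 0.43 in control (SD, n = 2 each), a group difference of 0.74 ± 0.21 (SE). That difference was 0.43 without control 1 and 1.05 without control 2. Hp was the only one of the 10 genes higher in Cre-GFP with each of the 4 arrays left out in turn. Its probe set was dim, among the dimmest 40% of probe sets, like the brightest ones of Lcn2 and Mmp9.

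Chil3 and Wfdc21 differed between replicates in both groups. Chil3, the chitinase-like protein Ym1 of neutrophils and of alternatively activated macrophages, read 6.46 and 7.45 in Cre-GFP, against 5.51 and 7.20 in control. Replicate 1 was the lower array in each group, with gaps of −0.99 in Cre-GFP and −1.69 in control. The group difference of Chil3 was 0.60 ± 0.58 (SE), or −0.24 without control 1. The probe set that Chil3 shares with Chil4 read 5.92 and 5.83 in Cre-GFP, against 5.77 and 6.02 in control, a control gap of −0.25.

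Wfdc21, a small secreted protein with a whey acidic protein domain, read 6.12 and 7.04 in Cre-GFP, against 5.87 and 7.93 in control. Its gaps were −0.92 in Cre-GFP and −2.06 in control, again with replicate 1 the lower. The group difference of −0.31 ± 0.67 (SE) was −1.34 without control 1 and 0.71 without control 2. S100a8, Chil3 and Wfdc21 were the 3 genes whose gap between the Cre-GFP arrays passed 0.5 in size (7.42% of all genes), each with Cre-GFP 1 the lower.

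Mmp9, gelatinase B of the tertiary granules and of activated macrophages, did not share the pattern. Its brighter probe set read 5.44 and 4.99 in Cre-GFP, against 5.79 and 5.73 in control. Both control arrays lay above both Cre-GFP arrays (14.9% of all genes had this arrangement), and the control arrays differed by only 0.06. The group difference was −0.54 ± 0.17 (SE), or −0.51 without control 1 and −0.57 without control 2, but −0.32 without Cre-GFP 2. The dimmer probe set read 4.63 and 4.58 in Cre-GFP, against 4.78 and 4.67 in control, a group difference of −0.12, and 3 of these 4 values were at or under the array's 20th percentile.

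**Figure D2:**
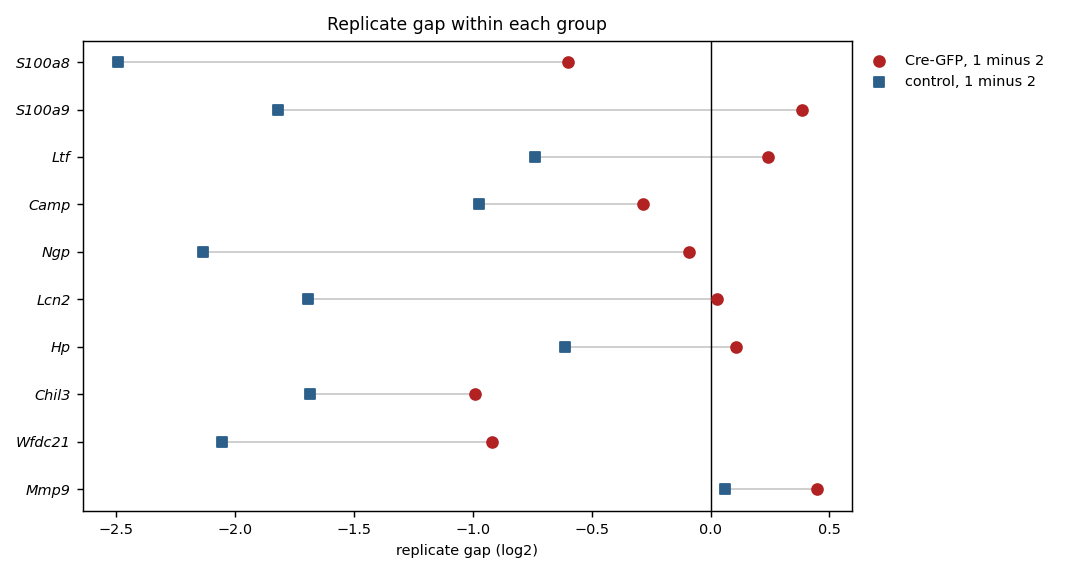
The horizontal axis gives replicate 1 minus replicate 2 on the log2 scale for each gene, as circles for Cre-GFP and squares for control. The squares lie between −2.49 and −0.61 for 9 genes and at 0.06 for Mmp9, while the circles lie between −0.99 and 0.45.

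Set side by side, the gap between replicates was larger in control than in Cre-GFP for 9 of the 10 genes (48.6% of all genes), with Mmp9 the exception. The size of the control gap ran in the order S100a8, Ngp, Wfdc21, S100a9, Lcn2, Chil3, Camp, Ltf, Hp and Mmp9. Lcn2 and Chil3 had the same gap to 2 decimals, −1.69, and with a single pair of control arrays neighbours in this order cannot be separated. Both Cre-GFP values lay between the 2 control values for 7 genes, and the exceptions were Hp, Chil3 and Mmp9. S100a9 counted only narrowly, with Cre-GFP 1 at 9.159 against 9.161 in control 2. The group difference was smaller than its own SE for 4 genes, S100a8, Ltf, Camp and Wfdc21, and exceeded it more than 2 times for 2, Hp and Mmp9. Shares of all genes were not computed for the counts by position between the controls and by SE. The SE ranged from 0.17 to 0.76 over the 10 genes, against a median of 0.16 over all genes.

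**Figure D3:**
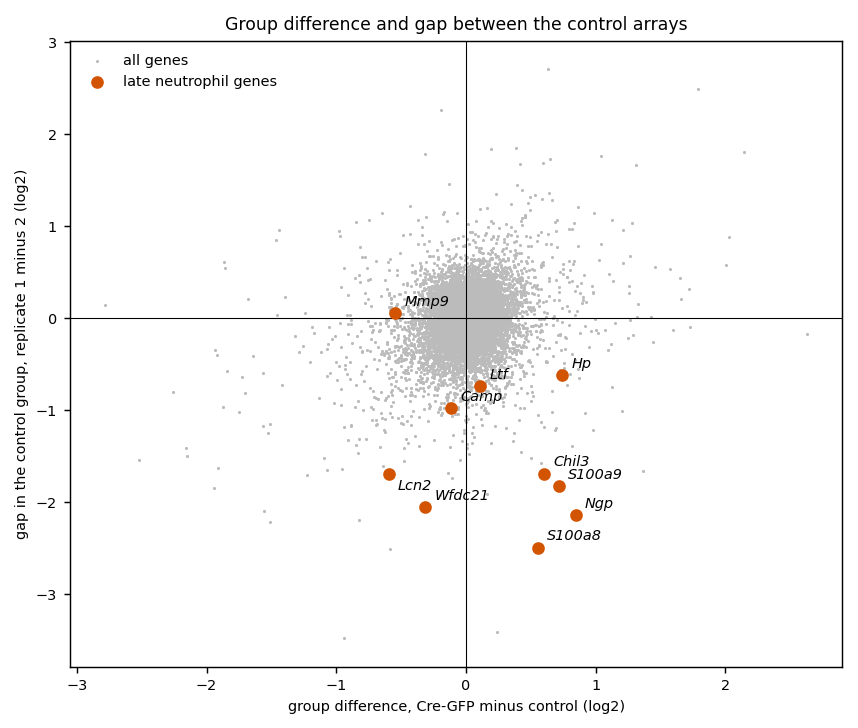
The horizontal axis gives Cre-GFP minus control and the vertical axis control 1 minus control 2, both on the log2 scale, with 1 grey point per gene and the late neutrophil genes in orange. Of the 10, 9 lie under the grey cloud's centre with gaps of −0.61 or lower, at group differences from −0.60 to 0.84.

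The direction of the group difference depended on which array was left out. Without control 1, the sign turned for 5 genes (S100a8, S100a9, Ltf, Ngp and Chil3), so that 9 of the 10 genes were lower in Cre-GFP (median −0.39), and Hp was the 1 gene still higher. In the same setting 52.4% of all genes were higher in Cre-GFP. For 8 genes both Cre-GFP arrays then lay under control 2 (30.7% of all genes), and for 1, Hp, both lay above it (34.4% of all genes). S100a9 was among the 8 only narrowly, at 9.159 in Cre-GFP 1 against 9.161 in control 2. Without control 2, the sign turned for Camp, Lcn2 and Wfdc21, so that 9 genes were higher in Cre-GFP (median 0.88) and Mmp9 was lower. Without Cre-GFP 1 the median was 0.34, with 7 genes higher, and the sign turned for 3, Ltf (−0.01), Camp (0.03) and Wfdc21 (0.15). Without Cre-GFP 2 it was 0.17, with 6 higher and no sign turned. Between them the settings without control 1 and without control 2 gave opposite signs for 8 genes, and Hp and Mmp9 kept theirs. Opposite signs mean that the Cre-GFP mean lay between the 2 control values, so they restate the control gap known when the genes were chosen. Shares of all genes were not computed for the settings other than without control 1.

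**Figure D4:**
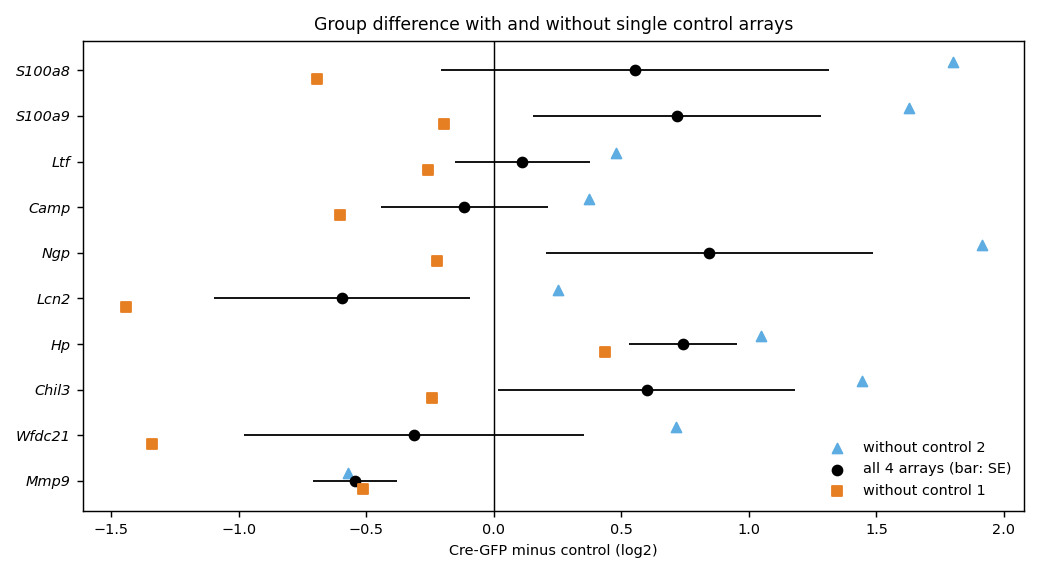
For each gene the horizontal axis gives Cre-GFP minus control on the log2 scale with all 4 arrays (black circle, bar of 1 SE to either side), without control 2 (triangle) and without control 1 (square). Squares lie under 0 for 9 genes and triangles above 0 for 9 genes, and Mmp9's 3 symbols lie together near −0.5.

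Other genes of neutrophil development were read in the same arrays through lists drawn from general knowledge, each gene by its brightest probe set. Of 116 measured list genes 0 passed the fit over all probe sets, and the smallest adjusted p in limma was 0.23. Of the primary granule and early granulocyte genes, 5 of 9 had both Cre-GFP arrays above both control arrays (15.2% of all genes) and 1 below (14.9% of all genes). None of the 9 had control 1 under control 2 by more than 0.5, which at 5.5% of all genes says little for 9. Mpo, myeloperoxidase, read 7.32 and 7.32 in Cre-GFP, against 6.21 and 5.93 in control, and Ctsg, cathepsin G, 7.48 and 7.75 in Cre-GFP, against 6.62 and 6.63 in control. Cst7, a cysteine protease inhibitor of myeloid and cytotoxic cells, read 8.54 and 8.86 in Cre-GFP, against 7.83 and 7.36 in control. Elane, neutrophil elastase, differed by 0.26 ± 0.15 (SE). Control 1 was the lowest array for 2 of the 9, Ctsg and Ms4a3, close to its share of all genes. The list's median control gap was 0.28, against −1.69 for the late genes, and that difference was not tested.

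Other late granule and mature neutrophil genes varied little between the arrays, and several of them were dim. Of 15 listed, 9 were measured, and Mmp25, Olfm4, Retnlg, Stfa1, Stfa2 and Stfa2l1 were not analysed here. The median control gap of the 9 was −0.06 and their median group difference 0.03. Cd177 and Stfa3 lay at or under the 20th percentile in every array, so their small differences may reflect low signal. Mmp8, neutrophil collagenase of the secondary granules, read 6.03 and 5.87 in Cre-GFP, against 6.09 and 6.16 in control. Pglyrp1, a peptidoglycan-binding granule protein, was the 1 gene of the 9 with a control gap under −0.5 (5.5% of all genes). It read 4.86 and 4.61 in Cre-GFP, against 4.21 and 4.72 in control. Ceacam10 differed by −0.18 ± 0.11 (SE) between the groups, and by −0.36 and −0.06 on its other probe sets.

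The receptors of neutrophils gave a median control gap of −0.11 over 14 measured genes. Without overlap, 2 were higher in Cre-GFP (15.2% of all genes) and 3 lower (14.9% of all genes). Control 1 was the lowest array for 7 of the 14 (21.8% of all genes). It lay under control 2 by more than 0.5 for 3 (5.5% of all genes). These were the integrin chain Itgb2 (−0.75), the formyl peptide receptor Fpr2 (−0.50) and the lectin Clec4d (−0.50), named after their values were seen. Csf3r, the receptor for granulocyte colony-stimulating factor, read 6.06 and 6.02 in Cre-GFP, against 6.24 and 6.14 in control. Selplg, the selectin ligand PSGL-1, differed by −0.61 ± 0.18 (SE), Trem1, an amplifier of myeloid inflammation, by 0.27 ± 0.09, and the Fc receptor Fcgr3 by 0.33 ± 0.18. Ly6g, the surface antigen that defines mouse neutrophils, was not analysed here, and the neutrophil label of these genes was not tested. Of the NADPH oxidase subunits, which make the respiratory burst, 3 of 5 had a control gap under −0.5 (5.5% of all genes). These 3 were Cyba, Ncf4 and Rac2, while the gap was 0.07 for Cybb and −0.07 for Ncf1. The list median was −0.67. Cyba, the p22phox chain, read 8.35 and 8.36 in Cre-GFP, against 8.50 and 9.26 in control, so control 2 was the array apart. Cybb and Ncf1 differed between groups by −0.25 ± 0.10 and 0.11 ± 0.10 (SE), with −0.05 on the other probe set of Ncf1. Cybb lay at or under the 20th percentile in every array.

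Transcription factors of granulopoiesis had a median control gap of 0.13. None of the 9 measured had control 1 as the lowest array, where 21.8% of all genes did, and Cebpe, the gene of C/EBP-epsilon, was not analysed here. Gfi1, a repressor needed for granulocyte development and also active in lymphoid progenitors, read 6.87 and 6.61 in Cre-GFP, against 7.64 and 7.00 in control. Cebpa, needed to enter the granulocyte-monocyte path, differed by −0.10 ± 0.14 (SE), and Cebpb, used in emergency granulopoiesis, by 0.41 ± 0.18, with −0.07 on its other probe set. Id2, an inhibitor of E proteins, read 6.19 and 6.20 in Cre-GFP, against 6.35 and 7.73 in control, with control 2 alone apart, and its other probe sets had control gaps of −0.93 and −0.25.

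Other S100 genes gave a median control gap of −0.07 over 11 measured. For 1 of them, S100a6, the control gap was under −0.5 (5.5% of all genes). S100a6 read 5.30 and 6.20 in Cre-GFP, against 6.03 and 6.88 in control, with replicate 1 the lower array in both groups. S100a10, the annexin A2 partner, differed by −0.67 ± 0.20 (SE) and S100a1 by 0.58 ± 0.15, with no overlap between groups, and their other probe sets differed by −0.47 and 0.13. Of receptors, partners and inhibitors of the late proteins, such as the calprotectin receptor Tlr4, the median control gap was 0.10 over 11 measured genes. In that list Timp3, a metalloproteinase inhibitor, differed by 0.52 ± 0.14 (SE), Cd36 by −0.24 ± 0.11 and Lrp2 by −0.12 ± 0.09, the last 2 at or under the 20th percentile in every array. Other probe sets gave 0.33, 0.28 and 0.54 for Timp3 and −0.19 and 0.11 for Cd36.

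**Figure D5:**
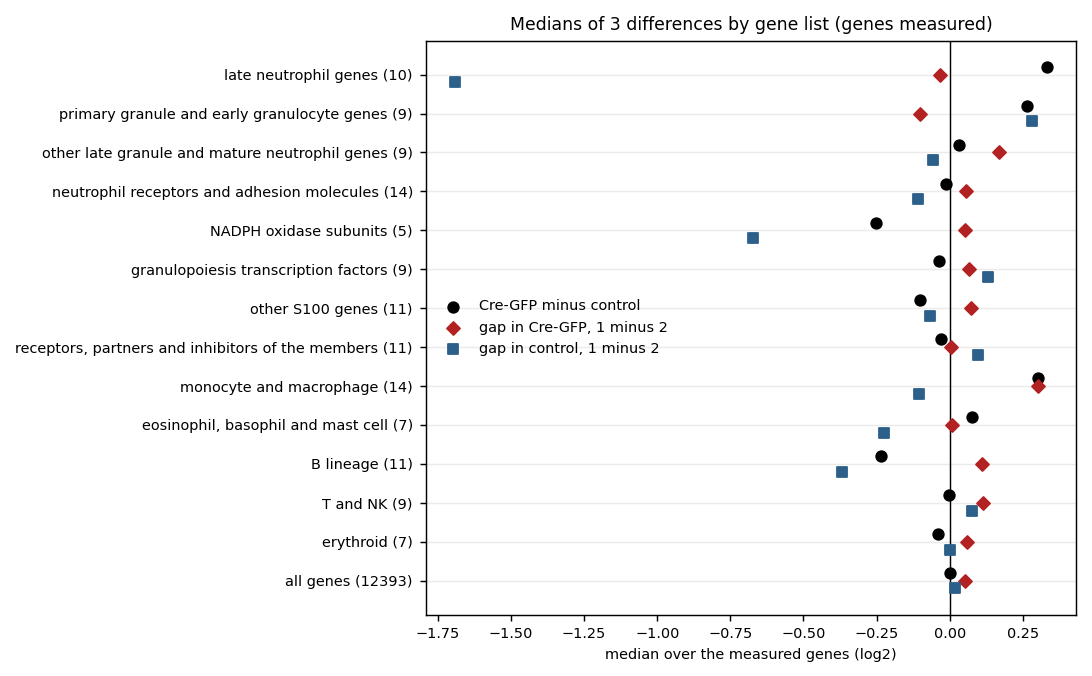
For each gene list (number of measured genes in brackets) the horizontal axis gives the median log2 difference between groups (black circle), between the Cre-GFP arrays (red diamond) and between the control arrays (blue square). The late neutrophil genes have a median control gap of −1.69, the oxidase subunits −0.67 and the B lineage markers −0.37, and every other list lies between −0.22 and 0.28.

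Markers of other blood cells moved between the same arrays, and their part in the values of the late genes was not tested. For monocytes and macrophages, which also make S100a8, S100a9, Chil3, Lcn2 and Mmp9, the linear intensities of the 14 measured markers summed to 6186 and 4149 in Cre-GFP, against 1851 and 3635 in control, and those of the 10 late genes to 3499 and 4293 in Cre-GFP, against 1358 and 5494 in control. Control 1 was thus the lowest array in both sums, while Cre-GFP 1 was highest in the first and control 2 in the second. The monocyte sum was carried by Lyz1, Lyz2 and Csf1r, which together summed to 5233 and 3387 in Cre-GFP, against 1092 and 2876 in control. The other 11 markers, a split chosen after seeing the values, summed to 953 and 762 in Cre-GFP, against 758 and 759 in control, and the median control gap of all 14 was −0.10. Lyz1, a lysozyme, read 11.79 and 11.15 in Cre-GFP, against 9.27 and 10.94 in control, Csf1r, the macrophage colony-stimulating factor receptor, 10.01 and 9.32 in Cre-GFP, against 8.16 and 8.91 in control, and Apoe differed by 0.37 ± 0.13 (SE). The other probe sets of Lyz1 had control gaps of −1.51 and −0.16 and group differences of 1.33 and 0.19. Those of Csf1r had control gaps of −0.32 and 0.14 and group differences of 0.36 and 0.17, against 1.13 on the brightest. Of the 14 markers, 7 had control 1 as the lowest array (21.8% of all genes) and 1 lay at or under the 20th percentile in every array.

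The 11 measured B lineage markers summed to 29946 and 30335 in Cre-GFP, against 35122 and 40244 in control. Vpreb1 and Igll1 carried most of that sum. Vpreb1 read 13.28 and 13.42 in Cre-GFP, against 13.38 and 13.80 in control. Igll1 read 13.60 and 13.67 in Cre-GFP, against 13.82 and 13.83 in control. Ebf1, a transcription factor that specifies B cells, read 11.71 and 11.60 in Cre-GFP, against 12.30 and 12.03 in control, a control gap of 0.27, with −0.51 and −0.63 on its other probe sets. Cd79a and Cd79b, the B cell receptor's signalling chains, differed by −0.80 ± 0.21 and −1.70 ± 0.43 (SE). Vpreb3, a chaperone of the pre-B receptor singled out after seeing its values, read 7.69 and 6.89 in Cre-GFP, against 7.70 and 9.91 in control, with control 2 apart. Control 2 held the highest value for 7 of the 10 late neutrophil genes, S100a9 only narrowly, and for 6 of the 11 B lineage markers (23.7% of all genes). It was also highest for the B lineage sum.

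Of the other marker sums, the erythroid one was lower in both Cre-GFP arrays, while those of the remaining lists overlapped between groups. Car2, carbonic anhydrase 2, made the erythroid difference by itself. Eosinophil, basophil and mast cell markers summed to 339 and 342 in Cre-GFP, against 299 and 345 in control over 7 genes, with Mcpt8, Ms4a2 and Tpsb2 differing by −0.20 ± 0.16, 0.11 ± 0.12 and 0.38 ± 0.13 (SE), and Tpsb2 by 0.22 on its other probe set. T and NK markers summed to 728 and 677 in Cre-GFP, against 731 and 707 in control over 9 genes, with Ncr1, Klrd1 and Gzma at −0.22, −0.40 and 0.17. Erythroid markers summed to 792 and 845 in Cre-GFP, against 1578 and 1546 in control over 7 genes, with Car2 at −1.46 ± 0.18, Alas2 at 0.19 and Car1 at 0.08. The linear intensity of Car2 was 392 and 464 in Cre-GFP, against 1186 and 1160 in control, and the other 6 erythroid markers summed to 401 and 381 in Cre-GFP, against 392 and 386 in control. Between the control arrays Car2 differed by 0.03 on the log2 scale.

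The genes whose 4-array profile was most like that of the late genes included no gene of the neutrophil lists. That absence was partly set beforehand, since genes under the median intensity, such as Mmp8, Pglyrp1 and Csf3r, were not candidates. Likeness was the root mean square difference, over the 4 arrays, between a probe set's log2 values minus their mean and the median of the 10 late genes' values treated the same way (−0.04 and 0.24 in Cre-GFP, −0.77 and 0.55 in control). Among 7054 genes with a probe set at or above the median intensity, the 8 nearest were Cyp51, a sterol demethylase (0.07), Btf3 and Naca, subunits of the nascent polypeptide-associated complex (0.09 and 0.11), Rdh10, a retinol dehydrogenase (0.10), Mtf2, a Polycomb accessory protein (0.11), Eif3e, a translation initiation factor (0.11), Tomm7 of the mitochondrial import pore (0.12) and H2-D1, an MHC class I chain (0.12). Each gene was ranked by its nearest probe set. Over all candidate probe sets, before 1 was kept per gene, the median was 0.50. The late genes themselves lay from 0.20 (Camp) to 0.67 (Mmp9) from their own median. Cyp51 read 7.81 and 8.21 in Cre-GFP, against 7.20 and 8.38 in control. Other probe sets of these genes could differ: those of Mtf2 had control gaps of 0.38, 0.21 and −0.32, against −1.03 on the probe set that was near. Where a brighter probe set existed, its control gap was 0.10 for Btf3, −0.31 and −0.07 for Eif3e, −0.56 for Tomm7 and −1.54 for H2-D1.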

How the data were processed

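Expression was measured in 4 arrays, 2 per group, from 20 ng of total RNA amplified with a NuGen Ovation kit, per the labels' protocols. The table the authors deposited holds linear intensities, 1 per probe set and array, from RMA, which normally corrects background, equalizes arrays by quantiles and summarizes probes, per the submitters' processing notes, with no version given there. RMA compresses differences of dim genes and hides shifts shared by most genes. Batches by scan were not tested, since no scanner file was used here.

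The deposited intensities were put on the log2 scale. Of 22690 probe sets, 64 array controls were left out and 22626 were fitted with limma 3.58.1 in R 4.3.3 (lmFit, eBayes with intensity trend, two-sided, Benjamini-Hochberg over all). Precision is limited by the number of arrays. The platform annotation gave 20393 probe sets 1 symbol, 691 several and 1606 none. All 11 probe sets of the late neutrophil genes matched RefSeq (GRCm38.p6) by gene number. Where 1 probe set stands for a gene, it is the brightest by mean over the arrays. The likeness of profiles is the exception, where it is the nearest probe set. No filter on low values was applied, so all 11 entered the fit. The fit was tested on simulated data.

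The late neutrophil genes and all 12 lists were chosen with earlier results of these data known. Named list genes were the 3 with the smallest unadjusted p per list plus Cebpe, Gfi1, Cebpa, Csf3r, Ly6g, Mpo and Elane where measured, and the 8 genes of most similar profile. Further list genes, such as Ncf4, Rac2, Lyz2, Vpreb1 and Igll1, were named outside this rule with their values known. Replicate arrays were compared before averaging: 78 probe sets had equal values in the Cre-GFP arrays and 73 in the control arrays, so no array was a copy. Alternatives were another scaling, a floor or filter for dim values, the mean of a gene's probe sets, other tests and leaving out each array.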

Additional observations from a re-analysis of the deposited data

How the results depend on the processing

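Dim values were raised to each array's 20th percentile, array medians were subtracted, quantile normalization was repeated, or a gene's probe sets were averaged. In each of these settings the 10 late genes' median group difference stayed at 0.33. Their median gaps and each gene's group difference moved by less than the spread between replicates. For Mmp9 the averaged probe sets gave −0.33 in place of −0.54. That spread is wide, since the genes were chosen with their replicate gap known, so it is a weak measure. By the same measure, leaving out control 1 counted as no move, although the median turned to −0.39. The count of genes with a mean replicate gap larger than the group difference was 8, and 7 with quantile normalization again. Leaving out single arrays moved the median group difference between −0.39 (without control 1) and 0.88 (without control 2). Without control 1, a setting chosen after seeing the data for this count, 8 late genes had both Cre-GFP arrays under the remaining control array (30.7% of all genes), against 1 with all arrays (14.9% of all genes), and 1 had both above it, as with all arrays. S100a9 was among the 8 only narrowly. Fewer arrays leave less to overlap with, and any further cause was not tested. Without the dimmest 40% of probe sets, 7 of the 10 genes remained, which left out Lcn2, Hp and Mmp9.

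Over all probe sets limma called 0 higher and 0 lower. It called 11 higher and 3 lower with dim values raised, and the ordinary two-sample test called 1 higher; the cause was not tested. Without single arrays the calls ranged from 0 to 6 higher and from 0 to 20 lower, both highest without control 1, and 1 was lower without control 2. With the replicate number as a block it called 0 higher and 0 lower (870 and 845 at an unadjusted p under 0.05). Same-numbered arrays deviated together (r = 0.36 across 22626 probe sets, which are not independent), but nothing in the labels says that the numbers pair the arrays.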
